A study of Danio rerio with 18 samples.

Results

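Proteasome subunit genes were followed across adult zebrafish ventricles in which tcf21, a transcription factor gene of the epicardium, was or was not deleted. Genes were taken by symbol: names starting with psma, psmb, psmc or psmd and a digit. The prefix fitted 49 annotated genes, and 47 of them stood in the count table of 25107 genes. psmb11a had 0 counts in every library and was dropped, which left 46 genes with at least 10 counts in 3 or more libraries, and all 46 were among the 20462 genes tested. They divided into 10 alpha ring genes, 7 constitutive beta ring genes, 7 base ATPases, 3 other base subunits, 9 lid subunits, 3 chaperones of base assembly (psmd5, psmd9 and psmd10) and 6 inducible beta genes. psmc3ip entered through its prefix only: it is a recombination factor gene, not a subunit. Both entries for PSMD2, a large scaffold of the base, lie on unplaced scaffolds outside the count table and were not analysed here, and no gene of the table carried the symbol psma7.

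The proteasome degrades proteins tagged with ubiquitin. Its barrel, the 20S core, stacks alpha rings, which gate the entrance, on beta rings, of which psmb5, psmb6 and psmb7 carry the cutting sites. The 19S regulatory particle caps the barrel: its lid removes ubiquitin and its base unfolds the substrate with a ring of ATPases. In mammals, immune cells and cells exposed to interferon replace the cutting subunits with the inducible Psmb8, Psmb9 and Psmb10, which changes the peptides offered on class I molecules, and heart muscle relies on the proteasome to turn over its contractile proteins.

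The 18 poly(A) RNA libraries formed 6 groups of 3, each library a pool of 2 to 3 ventricles. All fish were adult, homozygous for the floxed allele tcf21vln18 and carried Tg(ubbR:CreERT2*)vln2, an inducible Cre under a ubiquitous promoter, with the reporter TgBAC(tcf21:DsRed2)pd37. Fish of the conditional knockout (cKO) groups were bathed in 5 µM 4-hydroxytamoxifen 3 times for 24 h, the control groups are labelled without a treatment, and deletion and drug exposure therefore cannot be told apart. Ventricles were uninjured, or were taken 3 days after cryoinjury with a cooled probe, or 3 days after sham surgery that exposed the heart. For all 6 groups the time listed after the first treatment is 12 days. Nothing in the labels says how pools relate to families or tanks, so p-values measure the spread between these pools, and in whole ventricles fewer cells of a type and less RNA per cell cannot be told apart.

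Library totals ran from 107256750 to 191085931 counts, where 1 count is 75 aligned bases. Counts were low for psmc3ip, with a median of 100, and for psmb11b, with a median of 0. tcf21 stood at 6.28 to 18.9 CPM (counts scaled to library size) in the 9 control libraries and at 0.411 to 0.91 CPM in the 9 cKO libraries. The cardiomyocyte gene myl7 was at 7028.3 to 19509.4 CPM, while the atrial gene myh6 stayed at 7.11 to 169 CPM. The file headers carry the mark L2 for the control uninjured libraries and replicates 1 and 2 of control sham, and L4 for the other 13 libraries. This mark was read here as the sequencing lane and is called the lane below, though it may stand for another kind of batch. Uninjured control and cKO libraries thus never shared a lane, and neither did uninjured and cryoinjured control libraries. Control sham alone held libraries of both lanes. Where the lane is a covariate below, its term therefore rests on replicate 3 against replicates 1 and 2 of control sham.

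Levels per length, in FPKM (fragments per kilobase of transcript, scaled to library size), placed the beta ring highest. psmb4, a structural beta subunit, had the highest median over the 18 libraries at 61.8 FPKM, followed by psmb5, which cuts after hydrophobic residues, at 59.8 FPKM. The lowest beta ring gene was psmb6, whose site cuts after acidic residues, at 30.5 FPKM. In the alpha ring, psma8 led with 47.1 FPKM and psma2b was lowest with 5.84 FPKM. In mammals Psma8 is a germ cell form of the fourth alpha subunit. No gene of the table carried the symbol psma7, so these data do not show that the germ cell role applies to zebrafish psma8. Among the ATPases the medians ran from 16.9 FPKM for psmc1a to 44.4 FPKM for psmc5. The other base subunits ranged from 14.6 FPKM for psmd4b to 24.6 FPKM for psmd1, the largest scaffold of the base. Lid genes ran from 4.54 FPKM for psmd11a to 31.6 FPKM for psmd3. The assembly chaperones lay at 5.7 FPKM for psmd10, 7.22 FPKM for psmd5 and 9.62 FPKM for psmd9.

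**Figure D1:**
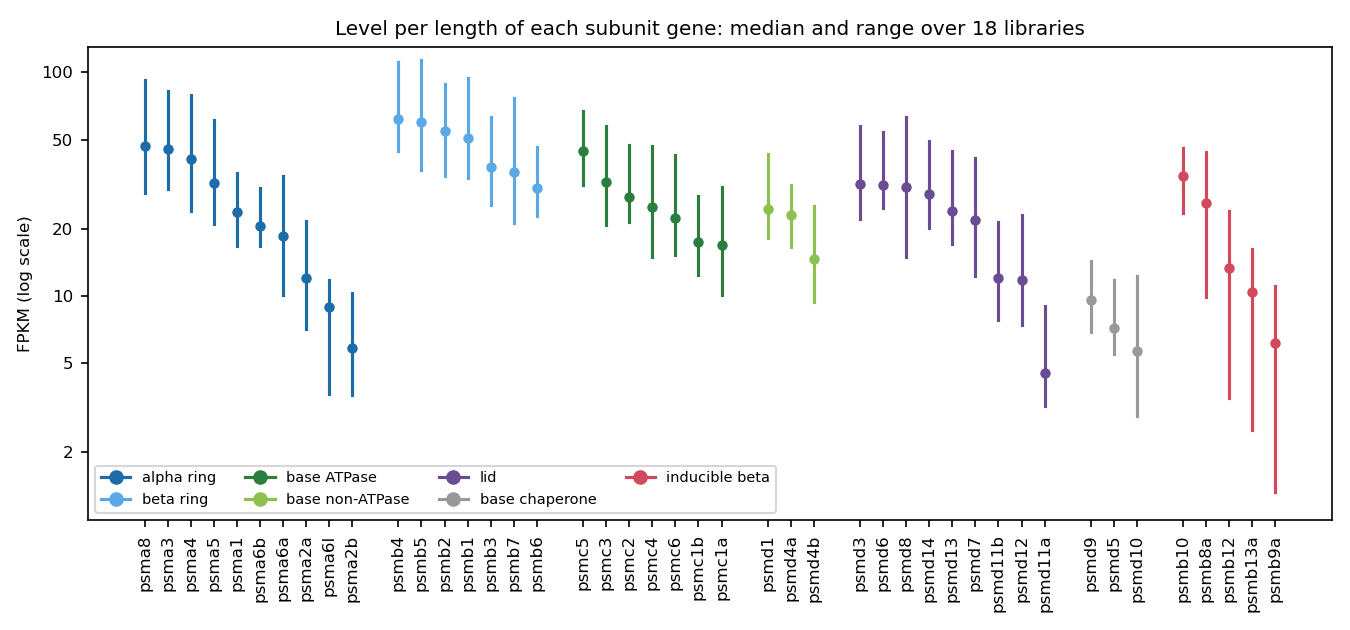
Median level per length (points) and the range over 18 libraries (lines) in FPKM on a log axis, by role; psmb11b, at 0 in most libraries, and psmc3ip are not drawn. Beta ring genes lie between 30.5 and 61.8 FPKM, and the inducible beta genes reach from 6.19 FPKM for psmb9a to 34.5 FPKM for psmb10.

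Inducible subunits were present in uninjured ventricles, with psmb10 at 26.4 to 45.1 FPKM in control and 27.2 to 41.9 FPKM in cKO libraries. psmb8a was at 9.97 to 32.0 FPKM in control and 9.94 to 18.3 FPKM in cKO uninjured libraries. Over all 18 libraries psmb10 had a median of 34.5 FPKM and psmb8a of 26.1 FPKM, and psmb12 (13.4 FPKM), psmb13a (10.4 FPKM) and psmb9a (6.19 FPKM) were lower. psmb11b, whose mammalian counterpart is a thymus subunit, was at or near 0: its highest library reached 0.152 FPKM and most held no count, so no fold is given for it. Set against the constitutive subunit they replace in mammals, psmb8a made up 16.0% to 42.5% of the summed psmb8a and psmb5 level, and psmb9a made up 4.76% to 25.7% of that of psmb9a and psmb6. psmb10 made up 30.7% to 66.3% of the summed psmb10 and psmb7 level. These shares overlapped between all 6 groups. The group mean of the psmb10 share was 52.8% ± 8.22 (SD, n = 3) in control uninjured, 47.4% ± 4.92 in control sham and 42.4% ± 10.2 in control cryoinjured ventricles. In cKO fish it was 52.9% ± 11.7, 47.3% ± 6.87 and 43.2% ± 4.84 in the same order. The means fell in this order in both genotypes, but the libraries overlapped and the difference was not tested.

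Duplicated genes differed in how evenly their copies contributed. psma2a gave 58.7% to 71.7% of the psma2a and psma2b level, and psmd11a gave 28.7% ± 2.63 (SD over 18 libraries) of that of the psmd11 pair of lid genes. The psma2 share depends on annotated length, which is 1753 exonic bases for psma2a and 4890 for psma2b. In counts the order was reversed, with a median of 3891.5 for psma2a and 4692 for psma2b. Of the exonic bases of psma2b, 12.8% overlap ntaq1 on the other strand. psmc1a and psmc1b, copies of one ATPase, were near parity, with psmc1a at 41.5% to 55.4%. The share of psma6a in the psma6a and psma6b level ran from 33.5% to 53.1%, and 12.2% of the exonic bases of psma6b overlap nfkbiaa on the other strand. psmd4a, one of 2 copies of a ubiquitin receptor, gave 54.7% to 57.6% of the pair in the control cryoinjured libraries and 60.7% to 63.0% in the cKO cryoinjured libraries, which did not overlap. In uninjured ventricles its share was 58.3% to 68.1% in controls and 63.4% to 67.9% in cKO fish, which overlapped. These shares are descriptions without a test, and 32.0% of the exonic bases of psmd4a overlap a weakly covered gene on the other strand. How reads were divided between similar copies is not given in the sources used here.

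After cryoinjury of control ventricles 4 of the 10 alpha ring genes, psma2a, psma4, psma5 and psma8, were called higher. psma8 was at 55.6, 55.3 and 50.6 CPM in the uninjured libraries, 69.6, 78.9 and 74.5 CPM in the sham libraries and 98.3, 92.4 and 93.1 CPM in the cryoinjured libraries. No library of one group reached another group's range, and sham lay between. The log2 fold change of cryoinjury over uninjured was 0.81 (SE 0.12, edgeR quasi-likelihood test, adjusted p = 0.000201). psma8 (ENSDARG00000010965) lies on chromosome 20 at 18306122 to 18313864 (GRCz11).

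psma2a, another alpha subunit, was at 18.1, 24.0 and 17.9 CPM in control uninjured libraries and at 32.5, 31.5 and 32.9 CPM after cryoinjury. All 3 cryoinjured libraries lay above all 3 uninjured ones, and the log2 fold change was 0.69 (SE 0.16, edgeR adjusted p = 0.00424). Its exons share 138 bases with atad2 and 41 bases with mrpl32, and no source used here says that counting used strand. Exons 2 to 7, counted from its 5′ end, share no base with either gene, and their scaled coverage was higher after cryoinjury by 0.60 to 0.71 on the log2 scale. psma4 rose by 0.57 (SE 0.15, edgeR adjusted p = 0.0102), from 42.7, 41.5 and 38.8 CPM to 67.5, 58.1 and 57.3 CPM. psma5 rose by 0.49 (SE 0.16, edgeR adjusted p = 0.0342), from 38.7, 40.5 and 31.9 CPM to 58.6, 50.3 and 47.7 CPM. Neither gene's groups overlapped, and cryoinjured replicate 1 was the highest library for both.

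With psmc3ip, which went from a mean of 0.198 to 1.83 CPM (log2 fold change 3.23, SE 1.00, edgeR adjusted p = 0.027), 5 of the 46 genes were called higher and 0 lower, a smaller share than the 13.1% of all genes called higher and the 10.6% called lower. The 4 called subunits all belonged to the alpha ring, and 0 of 7 beta ring and 0 of 19 regulatory genes were called. The beta ring lay close behind, with a median log2 fold change of 0.35 beside 0.44 for the alpha ring. Its smallest edgeR adjusted p was 0.0683, so the calls alone do not set the rings apart. The median log2 fold change was 0.37 over the 17 core genes, 0.15 over the 19 regulatory genes and 0.02 over all genes tested. Libraries of the cryoinjured group all lay above the uninjured ones for 12 of 46 genes, beside 20.1% of all genes. Without cryoinjured replicate 1 the count of calls fell to 2 and without uninjured replicate 3 to 3, it was 3 in a fit of these 2 groups alone, and with the lane as a covariate it was 0, with a median of 0.47 over the 36 core and regulatory genes.

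The proteasome's share of all counts moved more than these values, which are relative to the typical gene. The 46 genes took 0.146%, 0.179% and 0.135% of all counts in control uninjured libraries, 0.196%, 0.228% and 0.193% in control sham and 0.311%, 0.234% and 0.222% in control cryoinjured libraries. Neither operated group overlapped the uninjured one, and of the sham libraries only replicate 2 reached into the cryoinjured range. Scaled by total counts alone, 34 genes were called higher after cryoinjury and the 36 core and regulatory genes had a median of 0.70. The median of all genes was then 0.51, and 6222 of the 20462 genes tested were called in either direction. Marker sums moved as well: summed over 9 cell cycle genes the level was 41.6 to 78.1 CPM in uninjured and 338 to 434 CPM in cryoinjured control ventricles. Over 5 macrophage genes it was 39.6 to 164 and 299 to 480 CPM, and over 5 cardiomyocyte genes 40863.7 to 57033.3 and 21754.7 to 27375.8 CPM. Over 7 epicardium and fibroblast genes, tcf21 among them, it was 398 to 630 and 2889.1 to 5197.2 CPM. Their part in the result was not tested.

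After sham surgery in controls, psma8 alone was called (log2 fold change 0.47, SE 0.12, edgeR adjusted p = 0.0288), beside 4.81% of all genes called higher. The call was lost with the lane as a covariate, in a fit of the 2 groups alone and in 5 of 6 fits that left out a library, with adjusted p up to 0.105 without sham replicate 2. The 46 genes had a median of 0.14, and 6 of them had all sham libraries above all uninjured ones, beside 14.4% of all genes. Between cryoinjury and sham in controls, edgeR called 0 of 46 genes (1.37% of all genes), and 2 had an unadjusted p under 0.05 (16.7% of all genes). DESeq2 called 1, psma8, beside 1353 of the 20462 genes tested. psma8 had the smallest p there (log2 fold change 0.35, SE 0.12, edgeR adjusted p = 0.151), and all its cryoinjured libraries lay above the sham ones.

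**Figure D2:**
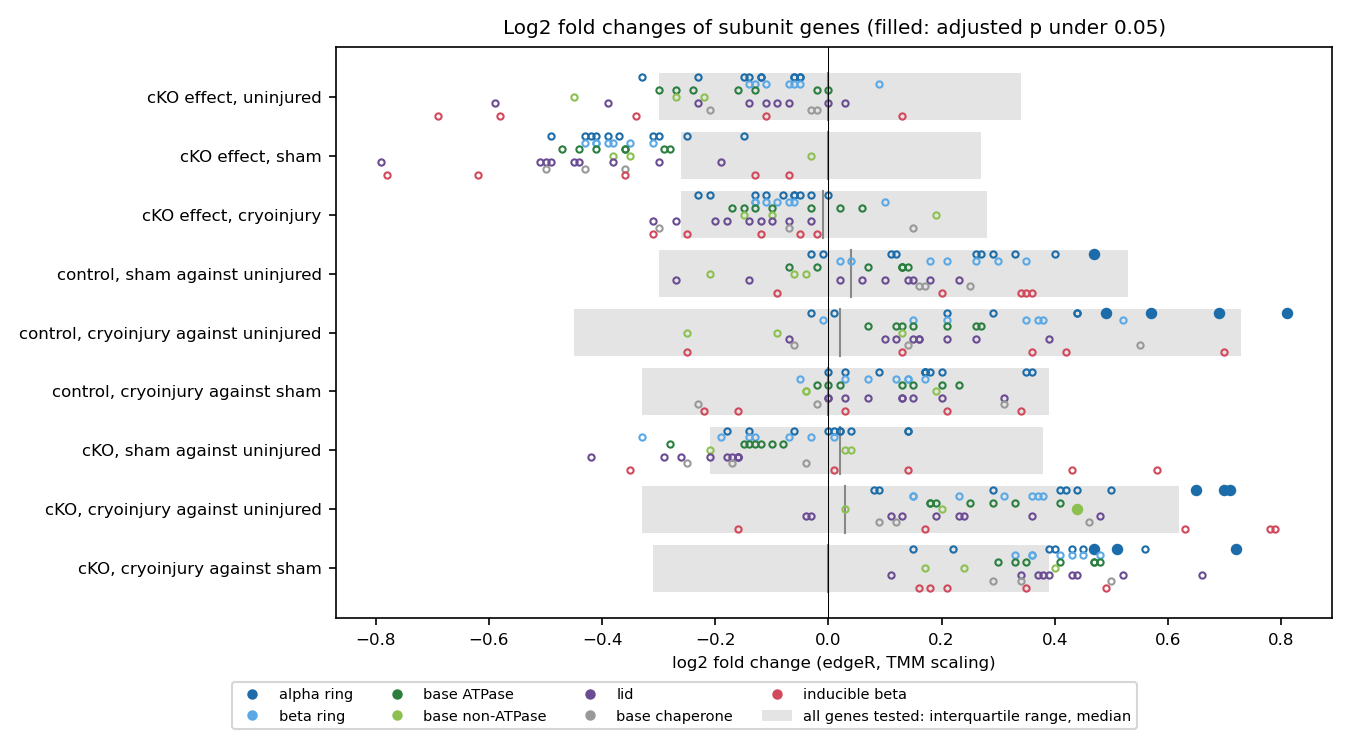
Log2 fold changes of subunit genes in the 9 comparisons of 2 groups, one point per gene and coloured by role; filled points have an edgeR adjusted p under 0.05, and grey bars and lines give the interquartile range and the median of all genes tested. Genes of the cKO sham libraries lie on the left against control sham and on the right when cryoinjury is set against them.

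In cKO ventricles, cryoinjury was followed by higher psma2a, psma4 and psma8 as well. All 6 libraries of this comparison came from lane 4. psma4 was at 44.7, 31.0 and 28.7 CPM in uninjured and 52.6, 56.0 and 61.4 CPM in cryoinjured libraries (log2 fold change 0.70, SE 0.15, edgeR adjusted p = 0.00672). psma8 was at 60.1, 53.1 and 43.1 CPM and then 77.2, 82.9 and 85.4 CPM (0.65, SE 0.12, edgeR adjusted p = 0.00312). Both were separated without overlap, and uninjured replicate 3 was the lowest library for each.

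psma2a rose by 0.71 (SE 0.16, edgeR adjusted p = 0.008), from 23.4, 16.9 and 17.4 CPM to 27.5, 31.8 and 35.5 CPM. Its overlap-free exons rose unevenly, by 0.23 at exon 2 and by 0.91 at exon 7 on the log2 scale. psmd4b, the other ubiquitin receptor copy, rose by 0.44 (SE 0.14, edgeR adjusted p = 0.0496), from 20.3, 20.4 and 17.3 CPM to 24.2, 25.7 and 28.8 CPM, and lost the call in each of 6 fits that left out a library. These 4 of 46 genes stood beside 6.92% of all genes called higher. The count was 2 without cryoinjured replicate 3 and 1 in a fit of the 2 groups alone. Scaled by total counts it was 14, where 2666 of the 20462 genes tested were called in either direction. The cryoinjured libraries lay above all uninjured ones for 25 of 46 genes, beside 20% of all genes. The median was 0.37 over the core and 0.20 over the regulatory genes. The difference between the cKO and the control response to cryoinjury, tested as an interaction, was called for 0 of 46 genes (0.0244% of all genes). By an unadjusted p under 0.05 it was 0 as well (11.2% of all genes), DESeq2 called 0, and the median over the 36 core and regulatory genes was 0.04, which became -0.15 with the lane as a covariate and -0.21 when scaled by total counts.

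After sham surgery the proteasome genes stood lower in cKO than in control ventricles. Library medians over the 36 core and regulatory genes were taken as log2 differences from the mean over all libraries. They averaged -0.257 ± 0.0462 (SD, n = 3) in cKO sham and 0.11 ± 0.165 in control sham, without overlap. In uninjured ventricles they averaged -0.177 ± 0.247 in cKO and -0.03 ± 0.207 in control libraries, and each of these groups overlapped both sham groups. For each of the 45 genes other than psmb11b the fitted difference from control sham was negative. The median log2 fold change was -0.39 over the 17 core genes, -0.38 over the 19 regulatory genes and 0.00 over all genes tested. By role the medians were -0.38 for the alpha ring, -0.39 for the beta ring, -0.36 for the ATPases, -0.35 for the other base subunits (psmd4a at -0.03), -0.45 for the lid and -0.43 for the assembly chaperones. The 6 inducible genes, psmb11b included, had a median of -0.49. Of these, 0 of 6 had an unadjusted p under 0.05, and 0 of 6 had all cKO libraries below the controls. All 3 cKO libraries lay below all 3 control libraries for 30 of 46 genes, beside 9.63% of all genes.

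No single gene passed the test: edgeR called 0 of 46 (0.0147% of all genes), and 23 had an unadjusted p under 0.05 (8.04% of all genes). DESeq2 called 1, psma1, beside 175 of the 20462 genes tested. psma1, an alpha ring gene, had the smallest p and was at 72.1, 76.5 and 72.4 CPM in control sham and 53.2, 56.0 and 55.0 CPM in cKO sham libraries. The 3 libraries of each group lay close together and far apart from the other group, with a log2 fold change of -0.43 (SE 0.10, edgeR adjusted p = 0.239, DESeq2 adjusted p = 0.00102). The lid gene psmd8 had the lowest fitted value of the core and regulatory genes, -0.79 (SE 0.29, edgeR adjusted p = 0.486), with 45.1, 71.3 and 52.2 CPM in control and 32.0, 30.1 and 35.4 CPM in cKO libraries.

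The cKO sham libraries all came from lane 4, as did replicate 3 of control sham. That library alone exceeded all 3 cKO sham libraries for 38 of 46 genes, beside 29.5% of all genes. With the lane as a covariate the median over the 36 core and regulatory genes was -0.25, with 34 of them negative. The lane term rests on that same replicate 3 against replicates 1 and 2 of control sham, so these are not separate checks. Other measures differed between the same groups. The cardiomyocyte sum was 32007.5 to 37669.1 CPM in control sham and 38288.0 to 40926.9 CPM in cKO sham, and the endothelial sum was 537 to 561 and 620 to 850 CPM, both without overlap. The most abundant genes carry such sums: of the 5 cardiomyocyte genes 3 had a positive and 2 a negative log2 fold change, with a median of 0.02, and of the 4 endothelial genes 3 were positive. The sum of 6 lymphocyte genes was low, at 3.88 to 5.43 CPM in control sham and 2.01 to 2.55 CPM in cKO sham. It did not overlap either, and 5 of the 6 genes were negative. The macrophage sum (151 to 219 and 131 to 273 CPM) and the cell cycle sum (124 to 153 and 114 to 161 CPM) overlapped. The sum of 7 epicardium and fibroblast genes (2492.0 to 3939.0 and 2045.1 to 2688.6 CPM) overlapped as well. Gene by gene, the 9 cell cycle genes had a median log2 fold change of -0.72, and 6 were negative. Of the 9, 5 had all cKO libraries below all controls (9.63% of all genes). An unadjusted p under 0.05 was found for 3, all lower (8.04% of all genes in either direction). edgeR called 0 of the 9 (0.0147% of all genes) and DESeq2 1, beside 175 of the 20462 genes tested. Mitochondrial genes took 16.3% to 17.5% of counts in control and 17.5% to 20.1% in cKO sham libraries. Their part in the proteasome difference was not tested.

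**Figure D3:**
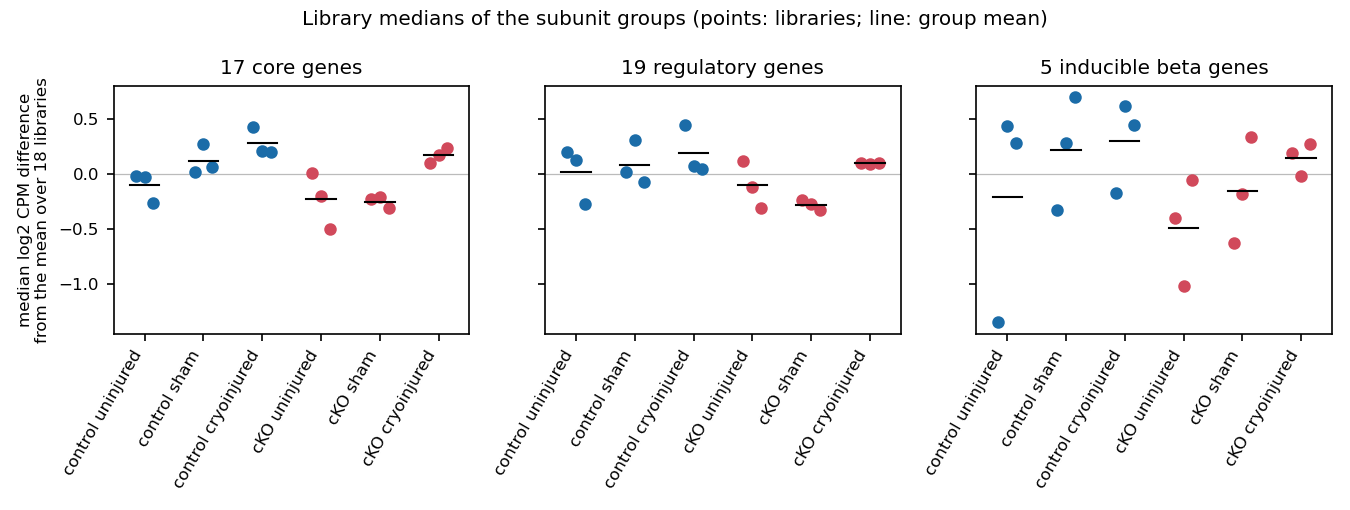
Median log2 CPM difference from each gene's mean over 18 libraries, one point per library with group means as lines, for 17 core, 19 regulatory and 5 inducible beta genes (psmb11b left out). The cKO sham libraries sit at -0.31 to -0.21 for the core genes and the control sham libraries at 0.02 to 0.27; the inducible genes spread from -1.35 to 0.70.

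Within the cKO fish, cryoinjury against sham showed the counterpart, and it shares the 3 cKO sham libraries with the comparison above. The fitted values of all 45 genes other than psmb11b were positive, with a median of 0.40 over the 36 core and regulatory genes and 0.00 over all genes tested. All cryoinjured libraries lay above all sham libraries for 39 of 46 genes, beside 16.7% of all genes. edgeR called 3 alpha ring genes higher, beside 1.18% of all genes. psma2a was at 17.2, 20.1 and 20.3 CPM after sham and at 27.5, 31.8 and 35.5 CPM after cryoinjury (log2 fold change 0.72, SE 0.16, edgeR adjusted p = 0.0353). psma1 rose by 0.47 (SE 0.10, edgeR adjusted p = 0.0353), to 70.9, 76.4 and 80.9 CPM. psma8 rose by 0.51 (SE 0.12, edgeR adjusted p = 0.0473), from 58.8, 57.9 and 55.3 CPM. The groups did not overlap for any of the 3 genes. Leaving out cKO cryoinjured replicate 1 left 1 call and leaving out any other library of the 2 groups left 0. Scaling by total counts called 7 of 46 genes, beside 597 of the 20462 genes tested, and DESeq2 called 5, beside 1113. A fit of the 2 groups alone called 20 of 46 genes, and its count over all genes is not given here.

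The core genes of the 3 cryoinjured libraries had median differences of 0.10, 0.17 and 0.24 from the mean over all libraries, and the sham libraries -0.23, -0.21 and -0.31. Cell cycle genes summed to 114 to 161 CPM after sham and 301 to 426 CPM after cryoinjury in cKO fish, and macrophage genes to 131 to 273 and 296 to 355 CPM, both without overlap. The 7 epicardium and fibroblast genes summed to 2045.1 to 2688.6 and 3809.6 to 4583.6 CPM, also without overlap. Their part in the result was not tested. Between cKO sham and cKO uninjured ventricles, edgeR called 0 of 46 genes (1.05% of all genes), 0 had an unadjusted p under 0.05 (10.7%) and DESeq2 called 0. The structural beta gene psmb3 had the smallest p there (-0.33, SE 0.16, edgeR adjusted p = 0.472).

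Interactions over the sham groups were not called either. For the response to sham in cKO against control fish, edgeR called 0 of 46 genes (0.0244% of all genes), 0 had an unadjusted p under 0.05 (9.2%) and DESeq2 called 0. The smallest p belonged to psma1 (-0.29, SE 0.14, edgeR adjusted p = 0.569), and the median over the 36 core and regulatory genes was -0.25. For cryoinjury over sham, edgeR called 0 of 46 genes (0% of all genes), 3 had an unadjusted p under 0.05 (2.3% of all genes) and DESeq2 called 0. psma1 again had the smallest p (0.38, SE 0.14, edgeR adjusted p = 1.0), and all 36 core and regulatory genes had a positive value, with a median of 0.28. With the lane as a covariate 29 of the 36 were positive, with a median of 0.15.

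In uninjured ventricles the cKO difference was smaller and could not be told apart from the lane. edgeR called 0 of 46 genes (0.132% of all genes), 2 had an unadjusted p under 0.05 (13.7% of all genes) and DESeq2 called 0. psmd4b had the smallest p, with 25.6, 30.1 and 23.8 CPM in control and 20.3, 20.4 and 17.3 CPM in cKO libraries. These did not overlap (log2 fold change -0.45, SE 0.14, edgeR adjusted p = 0.183). The median over the 36 core and regulatory genes was -0.12, and 0.06 with the lane as a covariate. After cryoinjury, where all libraries shared lane 4, edgeR called 0 of 46 genes (0.00489% of all genes), 0 had an unadjusted p under 0.05 (7.59%) and DESeq2 called 0. The median there was -0.10, and the smallest p was that of the lid gene psmd11a (-0.31, SE 0.16, edgeR adjusted p = 0.685).

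Averaged over the 3 conditions, edgeR called 0 of 46 genes lower or higher (0.518% of all genes), and 22 had an unadjusted p under 0.05 (15.7% of all genes). DESeq2 called 4, psma1, psmd4b, psmd8 and psmd11a, beside 851 of the 20462 genes tested. psmd4b had the smallest p (-0.32, SE 0.08, edgeR adjusted p = 0.0729). The count was 3 without control uninjured replicate 3, and 1 without replicate 1 of either uninjured group. The median over the 36 core and regulatory genes was -0.21 with 36 of 36 negative. With the lane as a covariate it was -0.09 with 28 of 36 negative.

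Within groups, the median SD of log2 CPM was 0.19 over the 36 genes and 0.23 over 5076 other genes of similar mean level. After each library's median over the 36 genes was subtracted it was 0.12, while for the other genes, given the same subtraction, it was 0.30. This is a description, since the subtracted median was computed from the 36 genes themselves, which lowers their SD by construction. To 2 decimals the SD was smaller after the subtraction for 27 of the 36 genes and larger for 8, among them psma1 (0.07 before and 0.21 after) and psma6b (0.11 and 0.22). Of the library medians, that of control cryoinjured replicate 1 was highest, at 0.44, and that of cKO uninjured replicate 3 lowest, at -0.44. Their mitochondrial shares were 11.7% and 21.6% of counts, the lowest and the highest of the 18 libraries. The part of this share in the proteasome levels was not tested. Among the core and regulatory genes, psma1 had the smallest SD within groups at 0.07 and psmd8 the largest at 0.40.

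**Figure D4:**
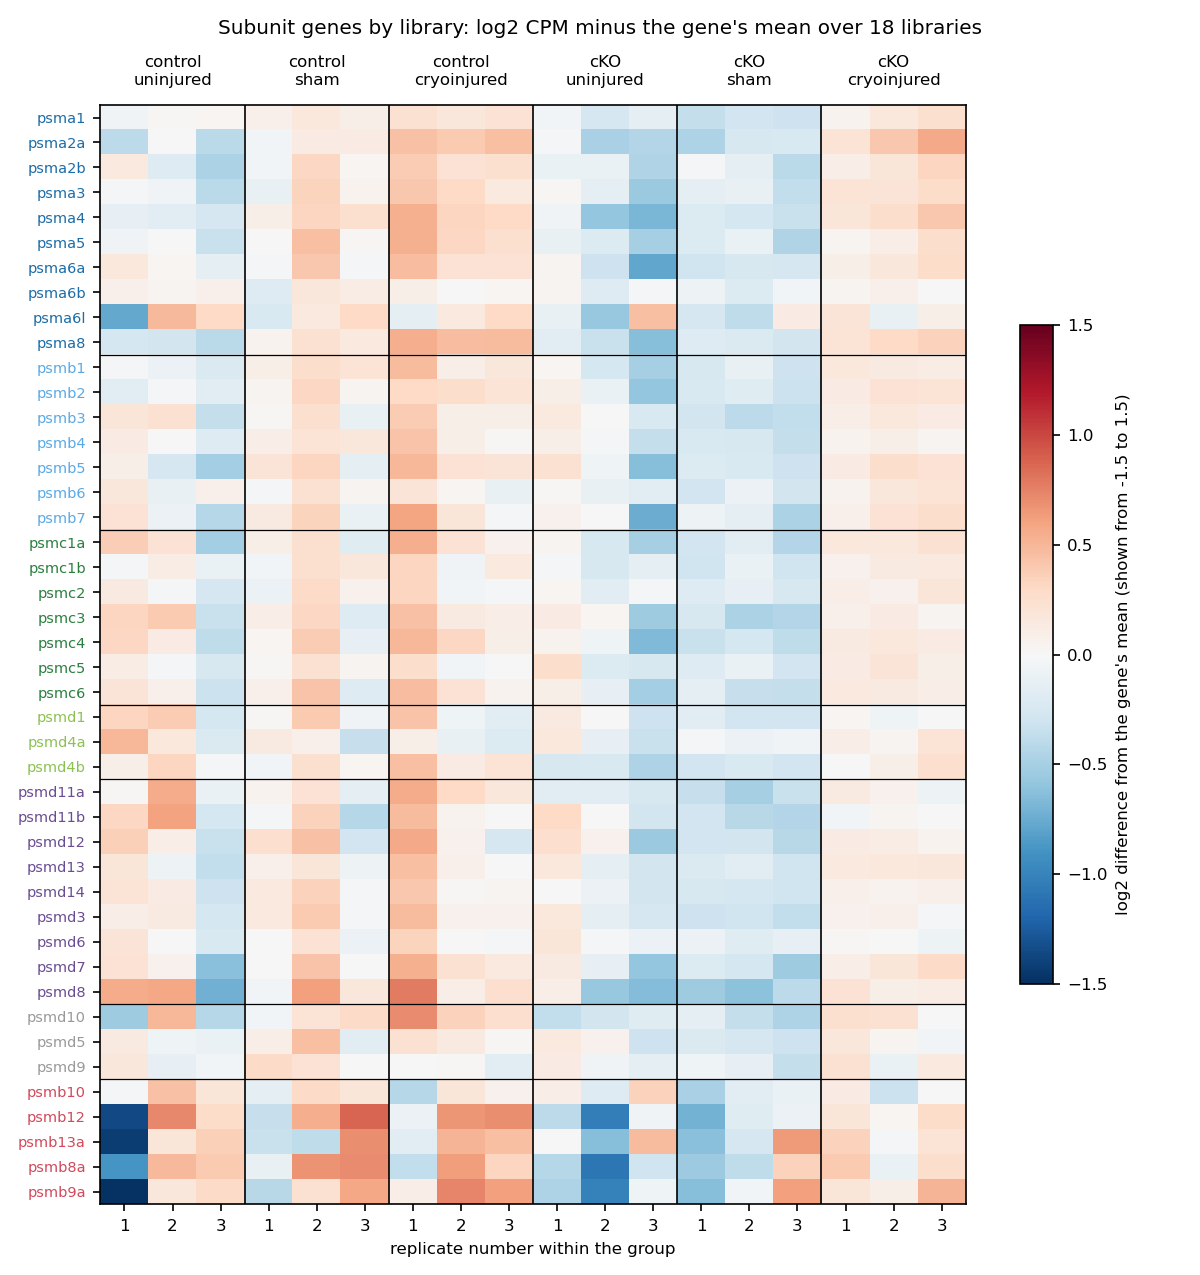
Log2 CPM minus each gene's mean over 18 libraries, for 44 genes (rows, by role, without psmb11b and psmc3ip) and 18 libraries (columns, by group and replicate number). Most rows of core and regulatory genes share their pale and dark columns, with control cryoinjured replicate 1 at a median of 0.44 and cKO uninjured replicate 3 at -0.44. Rows such as psma1 and psma6b share them less. The row of psma6l among the alpha ring genes and the inducible genes at the bottom follow other columns.

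The inducible beta genes spread more widely within groups. Their SD within groups had a median of 0.58 over 5 genes without psmb11b, and 0.71 after the median of the 36 core and regulatory genes was subtracted. psmb8a was at 17.8, 47.0 and 43.7 CPM in control uninjured, 30.8, 53.2 and 54.5 CPM in control sham and 25.7, 51.5 and 41.6 CPM in control cryoinjured libraries. In cKO libraries it was at 24.7, 15.4 and 27.0 CPM uninjured, 22.7, 25.4 and 42.3 CPM after sham and 43.7, 31.1 and 40.1 CPM after cryoinjury. Replicate 1 was the low library in each control group, and the pools of the control uninjured group spanned a wider range than the 6 group means, which ran from 22.3 to 46.2 CPM.

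psmb9a was at 2.24, 8.16 and 8.84 CPM in control uninjured and 7.72, 12.3 and 11.3 CPM in control cryoinjured libraries, which overlapped (log2 fold change 0.70, SE 0.44, edgeR adjusted p = 0.282). psmb12, a fish beta gene beside psmb9a, was at 4.46, 20.4 and 14.8 CPM in control uninjured libraries. psmb13a ranged from 3.92 to 14.7 CPM there, and replicate 1 was again the low library for each. psmb10 differed less, with 42.3, 58.9 and 48.9 CPM. None of the inducible genes was called in any of the 13 comparisons. Leaving psmb11b aside, the smallest unadjusted p was that of psmb12 for the cKO effect averaged over conditions (log2 fold change -0.56, SE 0.25, edgeR adjusted p = 0.299). For cryoinjury in cKO fish psmb8a had a log2 fold change of 0.78 (SE 0.36, edgeR adjusted p = 0.192), and its groups did not overlap.

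The low library was the same for these genes in group after group. psmb9a, psmb10 and psmb12 had their lowest library where psmb8a had it in 6 of 6 groups, and psmb13a in 5 of 6; psmb8a was taken as the reference after its values were seen. Over all genes tested, 0.508% shared the lowest library of psmb8a in 6 of 6 groups. Of the 36 core and regulatory genes 0 did, which says little beside that share. psme2, a subunit of the activator that works with the inducible core in mammals, irf1b, an interferon response factor, and b2m, the light chain of class I molecules, also shared it in 6 of 6 groups, and tap2a and tapbp.1 of peptide loading in 5. Other genes of the same lists did not: irf1b was the 1 of 8 interferon response genes that shared it in 6 groups, where isg15 shared it in 0, rsad2 in 1 and irf1a in 2. Likewise b2m was the 1 of 6 class I genes, and tap1 shared it in 2 groups. Genes of other lists, such as pdgfra and rad23ab, shared it in 5 groups, as did 559 of all genes tested. psma6l, an alpha ring gene, shared it in 5 of 6 groups and had an SD of 0.39 within groups, or 0.54 after the subtraction. It was at 7.63, 18.8 and 16.5 CPM in control uninjured libraries. The other psma6 genes there showed no such low library, with 23.5, 22.9 and 23.5 CPM for psma6b.

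**Figure D5:**
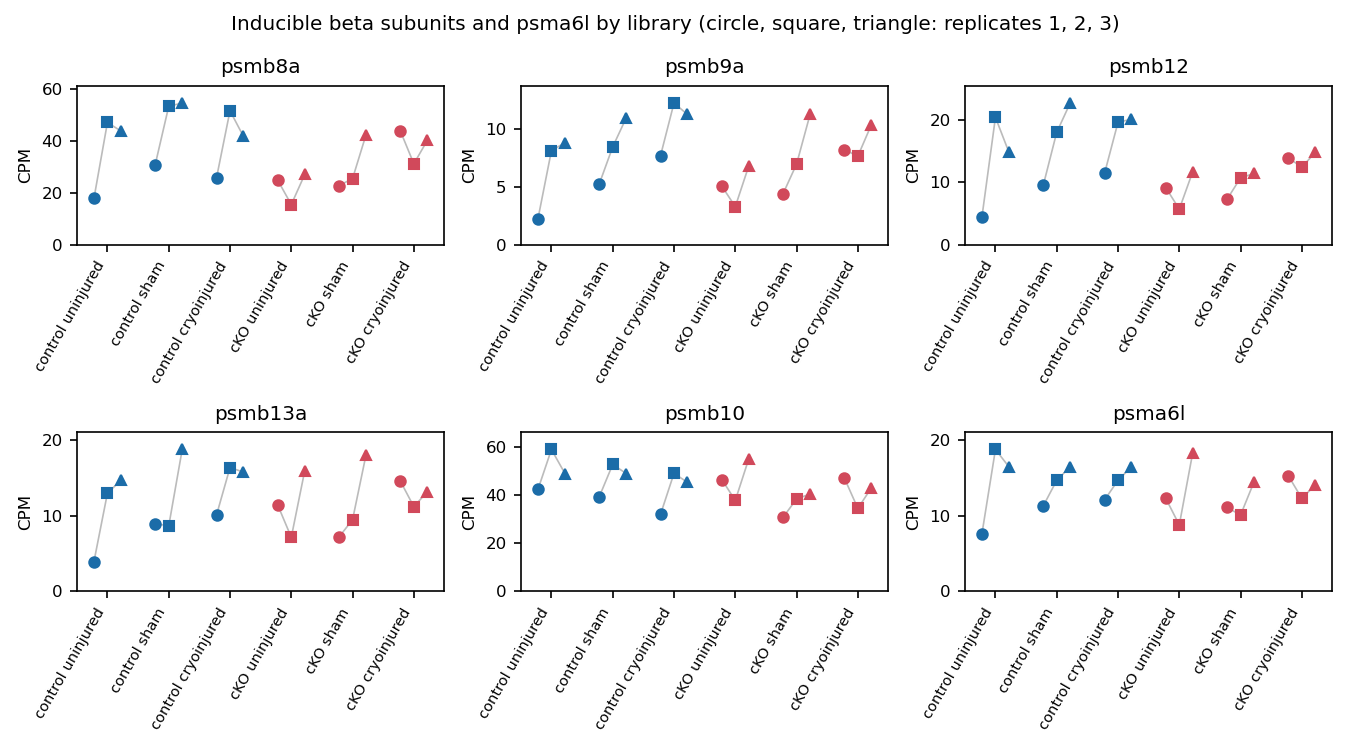
CPM of 5 inducible beta genes and psma6l in every library, control groups in blue and cKO groups in red, with circle, square and triangle for replicates 1, 2 and 3. In control uninjured ventricles replicate 1 is the low point of each panel, for example psmb8a at 17.8 CPM beside 47.0 and 43.7 CPM.

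psmb8a, psmb13a, psmb12 and psmb9a are neighbours on chromosome 19, where the annotation (GRCz11) places psmb12 at 7115223 to 7119456 and psmb9a at 7120380 to 7122373. psmb8a and psmb13a share 352 exonic bases through long transcript models, 21.7% and 23.7% of their exonic length, so their separate values are uncertain. These models also cover 300 and 258 exonic bases of tap2a on the other strand. psmb10 lies apart, on chromosome 4 at 77207693 to 77218637, and psma6l on chromosome 15. The summed level of 5 macrophage genes was lowest in the control uninjured group, at 39.6 to 164 CPM, and 6 lymphocyte genes summed to 0.661 to 3.31 CPM there. Of these 11 genes, 0 shared the lowest library of psmb8a in 6 groups, which says little beside 0.508% of all genes. gzma of cytotoxic lymphocytes shared it in 5 groups, as did 559 of the 20462 genes tested. The macrophage genes marco, c1qb and c1qc shared it in 4 groups, as did 1843 of the genes tested. The macrophage genes csf1ra and c1qa shared it in 1 and 3 groups, and the lymphocyte genes besides gzma in 1 to 3. Summed over 8 interferon response genes the level was 171 to 298 CPM in control uninjured and 185 to 209 CPM in control cryoinjured libraries. Their part in the inducible levels was not tested.

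Other genes of the pathway were called in both directions after cryoinjury. Of 39 listed names, 34 were matched and tested. In controls 1 was called higher and 5 lower, beside 13.1% and 10.6% of all genes. In cKO fish 2 were called higher and 4 lower, beside 6.92% and 3.69% of all genes. nfe2l2a, a stress transcription factor gene, rose by 0.59 (SE 0.15, edgeR adjusted p = 0.00777) in controls, from 40.1 to 53.2 CPM over the uninjured libraries to 63.6 to 71.7 CPM, and by 0.50 (SE 0.15, edgeR adjusted p = 0.0403) in cKO fish. sem1, the smallest lid subunit, rose by 0.56 (SE 0.14, edgeR adjusted p = 0.0174) in cKO fish.

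The genes that fell included both copies of psme4, the activator PA200 that caps the core in place of the regulatory particle. psme4b fell by 0.72 (SE 0.13, edgeR adjusted p = 0.000762) in controls, from 156 to 199 CPM over the uninjured libraries to 102 to 118 CPM. In cKO fish it fell by 0.90 (SE 0.13, edgeR adjusted p = 0.000322), from 173 to 207 CPM to 98.5 to 114 CPM, and by 0.54 (SE 0.13, edgeR adjusted p = 0.0471) against sham. Its groups did not overlap, and it fell where alpha ring genes rose. psme4a fell by 2.22 (SE 0.68, edgeR adjusted p = 0.0273) in controls and by 2.60 (SE 0.69, edgeR adjusted p = 0.0254) in cKO fish, but its uninjured libraries ranged from 29.6 to 299 CPM in controls. The others called lower were the shuttle factors ubqln4 (-0.70) and rad23ab (-0.47) and the muscle ligase trim63a (-1.10) in controls, and the proteasome inhibitor psmf1 (-0.56) and trim63b (-1.23) in cKO fish. The cardiomyocyte sum fell in the same comparisons, from 38852.7 to 50056.0 CPM to 29735.7 to 35474.2 CPM in cKO fish. Its part in these values was not tested. In controls after sham, ubqln4 was the 1 gene of the 34 called lower (-0.57, SE 0.14, edgeR adjusted p = 0.0199), beside 2.82% of all genes. For a cKO difference edgeR called 0 of the 34 genes in uninjured, sham and cryoinjured ventricles, beside 0.132%, 0.0147% and 0.00489% of all genes. By an unadjusted p under 0.05 there were 2, 4 and 2 of the 34 genes, beside 13.7%, 8.04% and 7.59% of all genes. DESeq2 called 0 in each.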

How the data were processed

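The authors deposited estimated counts per gene, whole numbers not scaled for depth, and a coverage file per library with coverage, FPKM and TPM per transcript; per the file headers both came from StringTie 2.1.1 on the Ensembl annotation of GRCz11. FastQC 0.11.9, Trim Galore 0.6.10 and HISAT2 2.1.0 are named per the submitters' processing notes. Rounded coverage times length divided by 75 lay within 1 of the deposited count for 100% of the values, so 1 count is 75 aligned bases. Identifiers were named from a table of gene names, and a symbol without its zebrafish letter was resolved by the same stem on the same chromosome in RefSeq. Gene FPKM is the sum over transcripts.

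Counts were scaled by TMM and fitted over all 6 groups with edgeR 4.0.16 (quasi-likelihood test, filterByExpr, Benjamini-Hochberg over 20462 genes, threshold 0.05) in R 4.3.3, and with DESeq2 1.42.0 as an alternative; the fit was checked on simulated counts. Library medians used log2(CPM + 0.5). The text names all inducible genes, up to 3 genes called in each direction per comparison or otherwise that of smallest p, both copies of pairs, and the highest and lowest gene per role; psmc3ip, psma5, psma6l and psmd8 were added after their values were seen. The members and lists were chosen with earlier results of these data known.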

Additional observations from a re-analysis of the deposited data

How the results depend on the processing

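The alternatives were other size factors, other count filters, DESeq2, a fit of only the groups compared, lane as a covariate, a replicate block and leaving out each library; total counts without a TMM factor were added after seeing the data. No called value or count changed direction, and of 182 repeats of the 13 called values 128 stayed past the threshold and 54 did not. Medians without calls did change sign. With lane as a covariate the median over core and regulatory genes went from -0.12 to 0.06 for cKO uninjured and from 0.04 to -0.15 for the cryoinjury interaction (-0.21 by total counts). The inducible median went from 0.27 to -0.03 for control sham and from 0.25 to -0.35 for control cryoinjury against uninjured, from 0.12 to -0.32 for control cryoinjury against sham and from -0.06 to 0.24 for the sham interaction. By total counts the genes called were 5 for cKO averaged over conditions, 10 for control sham against uninjured, 34 for control cryoinjury against uninjured, 1 for control cryoinjury against sham, 14 for cKO cryoinjury against uninjured and 7 for cKO cryoinjury against sham. Over all genes tested the same scaling called 333, 2506, 6222, 626, 2666 and 597, in that order. With lane as a covariate the calls were 0 for control sham and 0 for control cryoinjury against uninjured, beside 901 and 662 of all genes tested. Fitting only the groups compared gave 0 for control sham against uninjured, 3 for control cryoinjury against uninjured, 1 for control cryoinjury against sham, 1 for cKO cryoinjury against uninjured and 20 for cKO cryoinjury against sham. DESeq2 gave 1 for cKO sham, 4 for cKO averaged, 1 for control cryoinjury against sham and 5 for cKO cryoinjury against sham. Over all genes tested it called 175, 851, 1353 and 1113, in that order. Leaving out 1 library gave 0 to 3 calls for cKO averaged, 0 to 1 for control sham against uninjured, 2 to 6 for control cryoinjury against uninjured, 2 to 6 for cKO cryoinjury against uninjured and 0 to 1 for cKO cryoinjury against sham.

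Whether replicate numbers pair the samples is not given in the labels. Deviations of libraries with the same number correlated at -0.0336 to 0.198 (median 0.0484). Those of libraries with other numbers correlated at -0.217 to 0.0995 (median -0.0221). The ranges overlapped and do not settle it, and the main fit used no pairing. The replicate block gave 9 calls for control cryoinjury against uninjured in place of 5 and changed no other count by over 1.5 times. Its counts over all genes are not given here, so the 9 calls cannot be set beside a share of all genes.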
